A study of Mus musculus with 8 samples.

Results

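The members were 8 of the 19224 genes in the table of stellate ganglion neurons: the 3 sodium pump beta subunit genes Atp1b1, Atp1b2 and Atp1b3, and the 5 FXYD genes Fxyd1, Fxyd2, Fxyd5, Fxyd6 and Fxyd7. They were selected on their measured levels across the neuron subtypes, as genes of the pump family, so those levels are given as a description, with no test. Differences within subtypes were not part of that choice and were tested, though they come from the same neurons as those levels.

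The sodium pump (Na,K-ATPase) moves sodium out of the cell and potassium in, and so restores the gradients that action potentials and sodium-coupled transporters use up. Its catalytic alpha subunit needs a beta subunit, a glycoprotein, to fold and reach the membrane, and it can carry a small FXYD protein with a single membrane span that adjusts its affinity for ions. Sympathetic neurons depend on the pump for their resting potential, and satellite glia and Schwann cells around them express pump subunits of their own.

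The study took stellate ganglia, the sympathetic ganglia that supply the heart and forelimb, from 8 C57BL6/J mice of 8 to 10 weeks, and sequenced single cells on the 10x Genomics platform. All mice had received an adeno-associated virus for GFP in the heart and one for tdTomato in the front paws, there was no untreated or diseased group, and left and right ganglia were combined. The authors sorted the 1303 neurons into 8 subtypes, 5 noradrenergic (NA1a, NA1b, NA1c, NA2, NA3), 2 cholinergic (Ach1, Ach2) and 1 glutamatergic (Glut). The names of 5 mice matched a single sample each (replicates 1 to 5, batch 2, 1002 neurons), and the other 3 names could not be tied to single samples, so their 301 neurons were used only as 1 pooled value per subtype. The 3 samples left unmatched are all of batch 1. If the 3 names stand for them, comparing these neurons with the matched mice also compares batches.

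Each matched mouse gave 165 to 235 neurons and 916296 to 1196621 unique molecular identifiers (UMIs, each marking 1 captured mRNA molecule). A level is the mean over neurons of UMIs per 10000 UMIs of the neuron. Levels per mouse were set for subtypes with at least 10 neurons in the mouse, which left 5 mice for NA1a, NA1b, NA1c and NA2, 3 for NA3, 2 for Ach2, 1 for Ach1 and none for Glut. The median neuron had 8181.5 UMIs in NA1a, 6643.5 in NA3, 3338 in NA1b, 2778.5 in NA1c and 2341.5 in NA2. The summed level of 6 neuron and noradrenergic markers was 94.6 to 132 in the profiles of NA1a, NA1b, NA1c and NA2, and 44.2 to 54.4 in NA3. Satellite glia genes stood apart in NA3: their 10-gene list summed to 221 to 440 in the 3 NA3 mice and 132 in the Ach1 mouse, against 4.21 to 29.9 in the profiles of the other subtypes. Markers of further cell types moved in the same profiles: 5 fibroblast genes summed to 38.7 in the Ach1 mouse and 11.6 to 31.3 in NA3, against at most 3.29 elsewhere, 5 Schwann cell genes to 9.32 and 9.99 to 14.8, against at most 5.99, and 5 immune genes to 6.99 in Ach1 and 0.430 to 3.06 in NA3, against at most 1.87.

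Cell barcodes were also shared between libraries. Of the neurons in matched mice, 73 carried 1 of 21 barcodes found in 2 to 5 mice, and 20 of these barcodes had the same subtype in every mouse. They made up 55 of the 150 NA2 neurons, 15 of the 46 Ach2 neurons and 3 of the 17 Glut neurons, and 0 of the neurons of NA1a, NA1b, NA1c, NA3 and Ach1. Whether these are the same cells was not tested, and most results that rest on NA2, Ach2 or Glut are given with and without them.

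The FXYD genes Fxyd1, Fxyd7 and Fxyd5 lie head to tail on the minus strand of chromosome 7. By the GENCODE M21 annotation of GRCm38, Fxyd1 spans chr7:31051678-31057199, Fxyd7 chr7:31042513-31051467 and Fxyd5 chr7:31032722-31042481. Only 210 bases separate Fxyd1 from Fxyd7, and 31 bases separate the end of Fxyd7 from the start of Fxyd5. The whole of that second gap, at chr7:31042482-31042512, is shown to give its scale, read 5′ to 3′ on the minus strand from the RefSeq promoter table of GRCm38.

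Fxyd7 to Fxyd5: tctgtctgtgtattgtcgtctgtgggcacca

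Fxyd6 (chr9:45370185-45396159) and Fxyd2 (chr9:45399669-45410278) are also neighbours, on the plus strand, with 3509 bases between them. The beta subunit genes stand alone, Atp1b1 at chr1:164437109-164458355, Atp1b2 at chr11:69599736-69605942 and Atp1b3 at chr9:96332655-96364442, all on the minus strand. Promoter sequences were at hand for 5 of the 8 members.

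**Figure D1:**
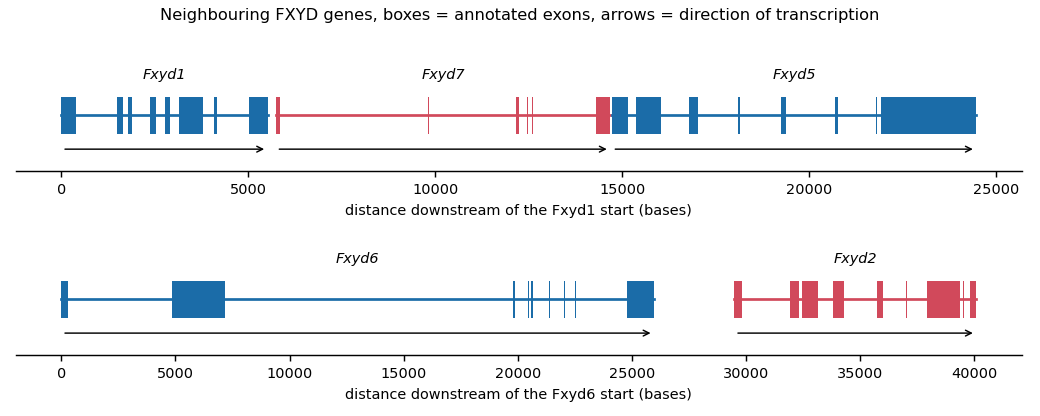
Map of the neighbouring FXYD genes in GENCODE M21. The x axes give the distance in bases downstream of the Fxyd1 start (top) and of the Fxyd6 start (bottom), boxes are annotated exons and arrows the direction of transcription; Fxyd5 starts 31 bases after the end of Fxyd7.

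Within this run the 3 neighbours had different patterns, with Fxyd1 highest in NA3, Fxyd7 in Ach2 and NA1a, and Fxyd5 in NA1a and NA1c. Over the 26 profiles of a mouse and subtype, Spearman's rho was 0.13 between Fxyd5 and Fxyd7 and -0.45 between Fxyd1 and Fxyd7, against 0.69 for the other neighbours, Fxyd2 and Fxyd6. These profiles share 5 mice and differ in depth, so the coefficients are descriptions.

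**Figure D2:**
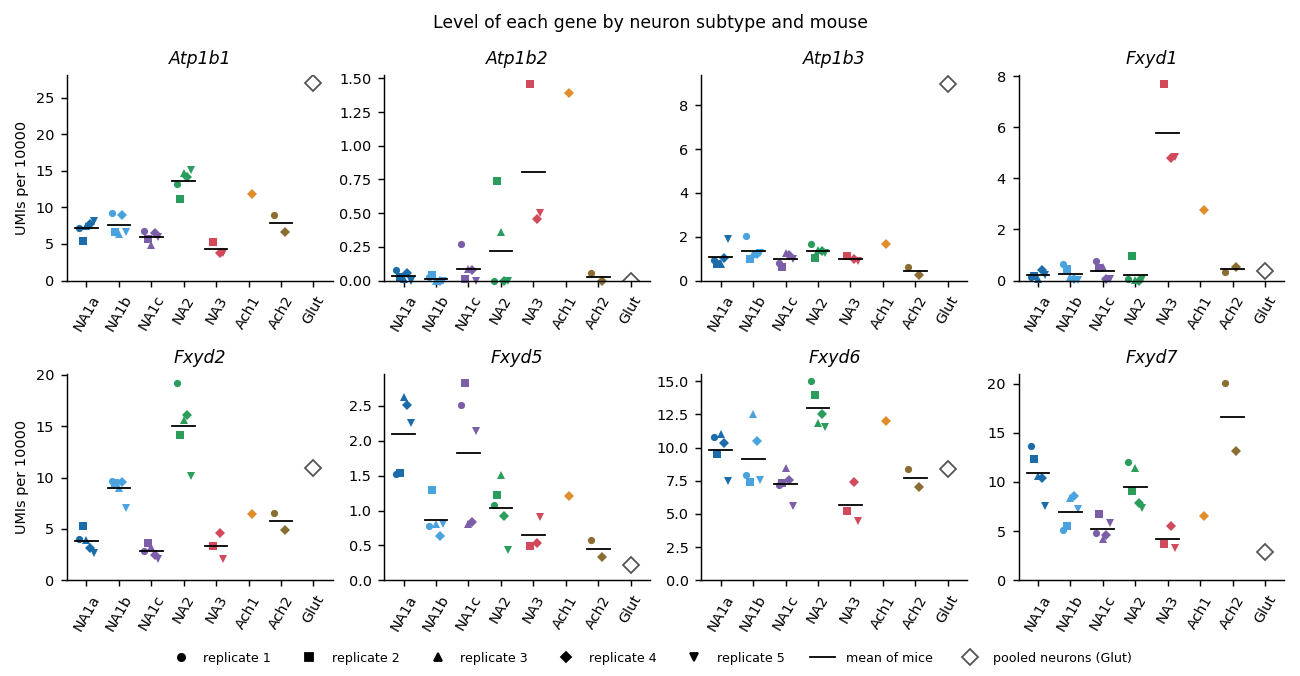
Level of the 8 members in UMIs per 10000 (y axis, linear, a scale for each gene) in the 8 subtypes (x axis). Each symbol is 1 mouse with at least 10 neurons of the subtype, bars are means over mice where there are 2 or more, and the open diamond is the pooled value of 17 Glut neurons; Fxyd1 and Atp1b2 stand high in NA3 and Ach1, Fxyd2 in NA2.

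Among the beta subunits, Atp1b1, the partner most widely used across tissues, was detected in every subtype. Its level in NA2 was 13.2, 11.2, 14.7, 14.1 and 15.1 in replicates 1 to 5 (13.7 ± 1.56, SD, n = 5), and 13.6 ± 1.18 (n = 4) without shared barcodes. It was 7.25, 5.41, 7.41, 7.73 and 8.15 in NA1a and 9.23, 6.63, 6.36, 8.91 and 6.57 in NA1b. The NA2 mice thus lay above all NA1a and NA1b mice, while NA1a and NA1b overlapped. NA1c followed at 5.99 ± 0.746 (n = 5), and NA3 was the lowest at 5.22, 3.80 and 3.71 in replicates 2, 4 and 5. The pooled Glut neurons stood highest, at 27.0 (23.5 without shared barcodes), and the 20 Glut neurons of the other mice at 34.1. In Ach2 the level was 7.82 ± 1.69 (n = 2) with and 4.25 ± 0.768 without shared barcodes, so its place in the order depended on them.

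Atp1b2, a beta subunit known from glia and also called adhesion molecule on glia, was near absent outside NA3 and Ach1. Its NA3 mice were at 1.46, 0.456 and 0.504 in replicates 2, 4 and 5, and the Ach1 mouse at 1.39. In NA1a the 5 mice lay between 0 and 0.0752, below all NA3 mice. In NA2 replicate 2 reached 0.741 and replicate 3 0.360, with the other 3 mice at 0. Without shared barcodes replicate 3 was at 0.328, the other 3 NA2 mice with enough neurons at 0, and replicate 2 had too few. It reached the level minimum of 0.5 in 3 of 23 profiles, 2 of them of NA3.

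The means of Atp1b3, the remaining beta subunit, ran from 0.963 ± 0.268 in NA1c to 1.34 ± 0.235 in NA2 (both n = 5), a difference larger than either SD, with overlapping mice. Without shared barcodes NA2 was at 1.23 ± 0.421 (n = 4), and the difference was within that SD. No neighbouring pair of noradrenergic subtypes in the order differed by more than the larger of their SDs. The pooled Glut value was 8.98 (10.9 without shared barcodes), but the 20 Glut neurons of the other mice gave 1.61.

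Among the FXYD genes, Fxyd1, which encodes phospholemman, followed Atp1b2. Its level in NA3 was 7.68, 4.8001 and 4.83 in replicates 2, 4 and 5 (5.77 ± 1.66, n = 3), and 2.75 in the Ach1 mouse. The 5 NA1a mice had 0.149, 0.185, 0.0513, 0.412 and 0.223. No NA1a, NA1b, NA1c or NA2 mouse reached 1, so the NA3 mice stood clear of all of them. The highest of these, 0.952 in NA2 of replicate 2, had too few neurons without shared barcodes, and the other NA2 mice were then at 0.114 or less. It had a UMI in 77 of 92 NA3 neurons and in 17 of 182 NA1a neurons, although the NA1a neurons were deeper. With each neuron thinned to 2000 UMIs the shares were 55.9% ± 11.5 (n = 3) and 3.01% ± 2.98 (n = 5).

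In NA3 these values moved with the satellite glia list. Of the NA3 neurons, 83 of 92 lay above the 95th percentile of NA1a neurons in the summed level of that list, and there Fxyd1 was at 6.31 with a UMI in 73 of 83. In the other 9 NA3 neurons Fxyd1 was at 0.745, with a UMI in 4 of 9. Atp1b2 was at 0.874 in the 83 neurons and had no UMI in the 9, which allows a share of up to 33.3%, for counting error only. Over the 92 NA3 neurons Spearman's rho with the list was 0.54 for Fxyd1 and 0.42 for Atp1b2, while depth itself had a rho of 0.50 with the list. Over the 62 Ach1 neurons it was -0.024 for Fxyd1 and 0.037 for Atp1b2, and in NA1b and NA1c it was 0.05 to 0.11 for both genes. Depth had a rho of -0.63 with the list in NA1b and -0.55 in NA1c. Above the same percentile, Fxyd1 was at 0.723 in 31 NA1b neurons, against 0.251 in the other 206. In NA1c it was at 0.961 in 39 neurons, against 0.230 in 177. Atp1b2 was at 0 against 0.0233 in NA1b, and at 0.310 against 0.0135 in NA1c, with a UMI in 4 and 2 neurons. Other members also differed between the 83 NA3 neurons and the 9. Fxyd6 was at 4.75 in the 83 and 10.2 in the 9, and Fxyd7 at 3.84 and 5.75. Atp1b1 went the other way, at 4.44 and 3.43. The part of RNA from glia, fibroblasts or other cells in the levels of these genes was not tested in any subtype.

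**Figure D3:**
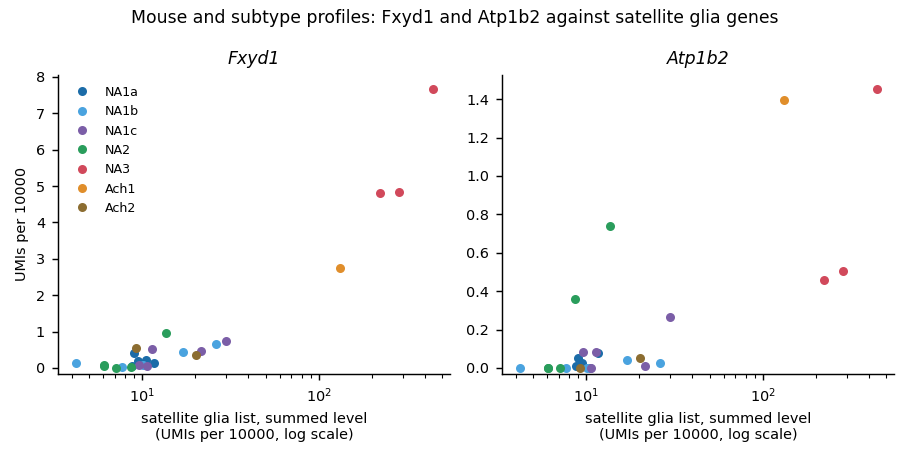
Level of Fxyd1 and Atp1b2 in UMIs per 10000 (y axis, linear) against the summed level of the 10 satellite glia genes (x axis, log scale), 1 point for each mouse and subtype with at least 10 neurons. The 3 NA3 profiles, with a glia level of 221 to 440, and the Ach1 profile, at 132, lie to the right of all others and hold the highest Fxyd1 levels.

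Fxyd2, the gamma subunit first described in kidney, had its highest mean in NA2. Its NA2 level was 19.2, 14.2, 15.6, 16.1 and 10.1 in replicates 1 to 5 (15.04 ± 3.30, n = 5). NA1b followed with 9.67, 9.49, 8.9998, 9.56 and 7.07. NA1a had 3.99, 5.25, 3.97, 3.17 and 2.69. The NA2 mice lay above the NA1b mice and these above the NA1a mice, with no overlap at either step. Without shared barcodes NA2 was at 12.0 ± 3.31 (n = 4) and its lowest mouse, at 7.45, then overlapped NA1b. The NA2 mean did not describe most of its neurons, since the median over all 150 was 8.48. Of these, 52 neurons at 20 or more averaged 35.2 (26 with a shared barcode). The other 98 averaged 5.27 (29 with a shared barcode). The means of NA1c (2.86 ± 0.608, n = 5) and NA3 (3.32 ± 1.298, n = 3) did not differ from that of NA1a by more than the larger SD. Within mice, however, NA1a was above NA1c in 5 of 5, with a log2 difference of 0.39 ± 0.090. Against NA3 the log2 difference was 0.17 ± 0.618, with NA1a higher in 2 of 3 mice. Pooled neurons of the other mice gave 15.6 in NA2 and 14.4 in NA1b.

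Fxyd5 encodes dysadherin, a regulator of cell adhesion as well as of the pump. Its mean over matched mice was highest in NA1a, where they had 1.53, 1.54, 2.63, 2.51 and 2.25. NA1b had 0.781, 1.29, 0.809, 0.631 and 0.810, below every NA1a mouse. NA1c was split between mice, with 2.51, 2.82 and 2.14 in replicates 1, 2 and 5, and 0.805 and 0.843 in replicates 3 and 4, and so overlapped both. Pooled over the neurons of matched mice, NA1c (2.16) and NA1a (2.15) were level. In the pooled neurons of the other mice NA1a did not lead, with 1.45 in NA1a, 1.69 in NA1b and 2.80 in NA1c. NA2 (1.03 ± 0.403, n = 5; 0.923 ± 0.420, n = 4, without shared barcodes), NA3 and Ach2 were no further from their neighbours in the order than the larger SD.

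Fxyd6, known from brain and inner ear, was detected throughout. Its NA2 level was 15, 14.0, 11.9, 12.5 and 11.6, above all 5 NA1a mice, which lay between 7.51 and 11.04. Without shared barcodes the NA2 mean was 10.2 ± 0.627 (n = 4), against 13.0 ± 1.46 (n = 5) with them, and NA2 overlapped NA1a. NA3 had 5.25, 7.39 and 4.49 in replicates 2, 4 and 5 (5.71 ± 1.501), but 10.2 in its 9 neurons low in satellite glia genes. Ach2 was at 7.72 ± 0.972 (n = 2) with and 5.41 ± 0.742 without shared barcodes, so which of these 2 subtypes was the lower depended on them.

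Fxyd7, a neuronal FXYD protein, was highest in the cholinergic subtype Ach2, at 20.1 and 13.1 in replicates 1 and 4 (16.3 ± 6.15, n = 2, without shared barcodes). NA1a came next with 13.6, 12.4, 10.6, 10.4 and 7.61, and overlapped the lower Ach2 mouse. NA2 had 12.0, 9.08, 11.4, 7.82 and 7.34, whose mean differed from that of NA1a by less than the larger SD, and 9.17 ± 1.95 (n = 4) without shared barcodes. NA1c was at 5.25 ± 1.05 (n = 5), below every NA1a mouse, and NA3 at 4.16 ± 1.20 (n = 3). In Ach1, the other subtype named cholinergic, the 1 mouse was at 6.57.

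Taking subtypes in pairs, the mice of NA1a and NA1b did not overlap for 2 of the 8 members, Fxyd2 and Fxyd5, beside 6.79% of all genes tested. NA1a and NA1c were apart for Fxyd7 alone (6.90% of all genes), and NA1b and NA1c for Fxyd2 alone (2.64%). NA1a and NA3 were apart for 6 of the 8 (24.0%), NA1b and NA3 for 5 (25.9%), and NA1c and NA3 for 2, Fxyd1 and Atp1b2 (25.1%). NA2 was apart from NA1a for 4 members (29.4%), from NA1b for 2 (33.5%), from NA1c for 4 (33.7%) and from NA3 for 5 (29.1%). Without shared barcodes the counts for NA2 were 3 (28.0%), 1 (30.4%), 4 (30.8%) and 6 (28.0%). Nothing is read from these counts, since the members were chosen with these levels known.

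The comparison that the choice of members did not use set neurons with high Npy against neurons with low Npy inside each subtype. It draws on the same neurons as the subtype levels, so it is not independent of them. Npy encodes neuropeptide Y, a co-transmitter of sympathetic neurons, by whose level the study also stratified its neurons. In each mouse and each of NA1a, NA1b, NA1c and NA2, neurons at or above the 70th percentile of Npy were compared with those at or below the 30th, in 19 pairs with 234 neurons on each side, and the differences in log2(level + 0.1) were averaged within each of the 5 mice. Replicate 2 had too few NA2 neurons, so its average is over NA1a, NA1b and NA1c only. By limma with Benjamini-Hochberg adjustment 38 of 3829 genes, or 0.992%, differed, 31 higher (0.810%) and 7 lower (0.183%) in Npy-high neurons. Fxyd2 was 1 of the 7 and Fxyd5 1 of the 31. By p, Fxyd2 ranked 6 and Fxyd5 19 of the 3829 genes. The genes ranked before Fxyd2 were Pcp4, Sctr, Fst, Rxfp1 and S100a6, all higher with high Npy. Sctr is a gene by which the study marked NA1c, so the split may also follow differences between subtypes. Whether it does was not tested.

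Fxyd2 was at 4.29, 5.29, 4.22, 3.96 and 3.48 in the Npy-high neurons of replicates 1 to 5, and at 14.9, 6.66, 12.1, 11.1 and 9.92 in their Npy-low neurons. It was thus lower with high Npy in 5 of 5 mice, and the 2 sides did not overlap. In replicate 2, whose values hold no NA2 neurons, the log2 difference was -0.26, against -0.85 to -1.23 in the other mice. The log2 difference was -0.92 (SE 0.14, limma adjusted p = 7.56e-05), and the exact sign-flip permutation test over 5 mice gave a two-sided p of 0.0625, the smallest it can give. Of the 19 pairs of a mouse and subtype, 15 had less Fxyd2 on the Npy-high side.

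The size of the Fxyd2 difference lay in NA2. There the Npy-low neurons had 40.0, 32.8, 28.2 and 25.9 UMIs per 10000 in replicates 1, 3, 4 and 5, and the Npy-high neurons 4.87, 4.17, 3.59 and 0.997 (replicate 2 had too few NA2 neurons). Median depths ranged from 2192 to 3638 UMIs in replicates 1, 3 and 4, and in replicate 5 they were 12936 UMIs with high and 2811 with low Npy. The log2 difference was -3.37 ± 0.800 (SD, n = 4 mice), from 31.7 ± 6.24 to 3.41 ± 1.69. In NA1b it was -0.47 ± 0.244 and negative in 5 of 5 mice, with a median of 2664.5 UMIs in Npy-high and 7607 in Npy-low neurons. In NA1a and NA1c it was -0.10 ± 0.746 and -0.34 ± 0.498, each negative in 3 of 5 mice.

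Leaving NA2 out ended the call for Fxyd2 (-0.31, limma adjusted p = 0.466), and thinning neurons to 2000 UMIs did so too (-0.66, adjusted p = 0.355). It was kept when any other subtype or any replicate was left out. Without shared barcodes it stood at -0.75 (adjusted p = 7.49e-04), and the NA2 neurons gave 23.1 ± 6.27 with low and 2.90 ± 2.12 with high Npy in the 3 mice that then had enough of them. In the mice not used in the test Fxyd2 was at 27.7 in the 8 NA2 neurons with low and 5.24 in the 8 with high Npy, and at 16.8 and 11.4 in NA1b, but was the higher with high Npy in NA1a (3.60 with low, 4.07 with high) and NA1c (1.64 and 3.99, 7 neurons each). Over the 150 NA2 neurons Spearman's rho between Fxyd2 and Npy was -0.70, against -0.14 in NA1b, 0.0014 in NA1a and 0.019 in NA1c. The 25 NA2 neurons with no Npy UMI had a mean Fxyd2 level of 36.6, and the 125 with Npy 11.4. Shared barcodes were carried by 15 of the 25 and 40 of the 125, and these values and the rho were not set without them. The 52 NA2 neurons with Fxyd2 at 20 or more, which raise its NA2 mean, had a mean Npy of 8.33. The other 98 had 61.0.

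**Figure D4:**
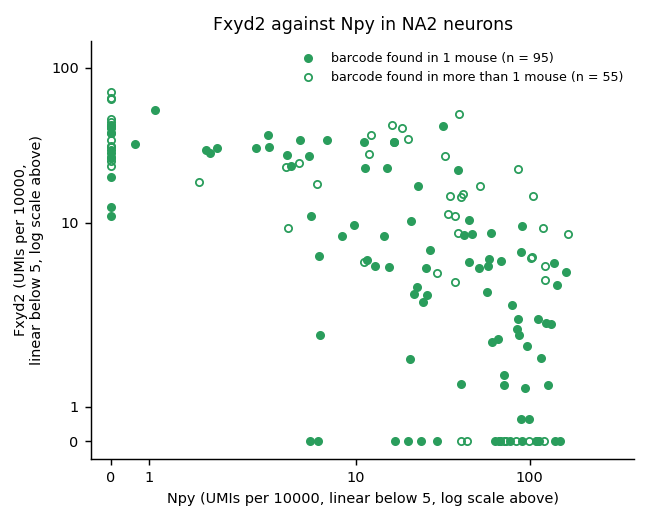
Fxyd2 (y axis) against Npy (x axis) in the 150 NA2 neurons of matched mice, both in UMIs per 10000, linear below 5 and on a log scale above. Neurons whose barcode occurs in more than 1 mouse are open circles (n = 55); the 25 neurons with no Npy have 11.1 to 69.8 of Fxyd2, and of the 50 with Npy below 10, 7 also have Fxyd2 below 10.

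Fxyd5 went the other way. It was at 1.57, 2.66, 2.05, 2.03 and 1.83 in the Npy-high neurons of replicates 1 to 5, and at 1.31, 1.07, 0.947, 0.705 and 1.02 in their Npy-low neurons. It was higher with high Npy in 5 of 5 mice and in 15 of 19 pairs, by 1.04 on the log2 scale (SE 0.23, limma adjusted p = 0.0119; exact sign-flip permutation p = 0.0625, two-sided). In NA1a every mouse showed it, with 2.67 ± 0.870 against 1.42 ± 0.596 (n = 5). The log2 difference was 0.46 ± 1.16 in NA1b, with 3 of 5 mice higher, and 1.16 ± 1.26 in NA1c, with 4 of 5. In NA2 it was 1.69 ± 1.48, with 3 of 4 mice higher, and 1.75 ± 1.47 (n = 3) without shared barcodes. The call was lost without replicate 2 (adjusted p = 0.0990), 3 (0.0612) or 4 (0.151), without NA1a (0.141), NA1c (0.0613) or NA2 (0.0573), without the level minimum (0.125) and on thinned neurons (0.467). The log2 difference was 0.85 to 1.21 in these settings. In the neurons of the other mice Fxyd5 was also higher with high Npy in NA1a (2.01 against 0.824), with median depths of 8890.5 and 3706 UMIs.

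**Figure D5:**
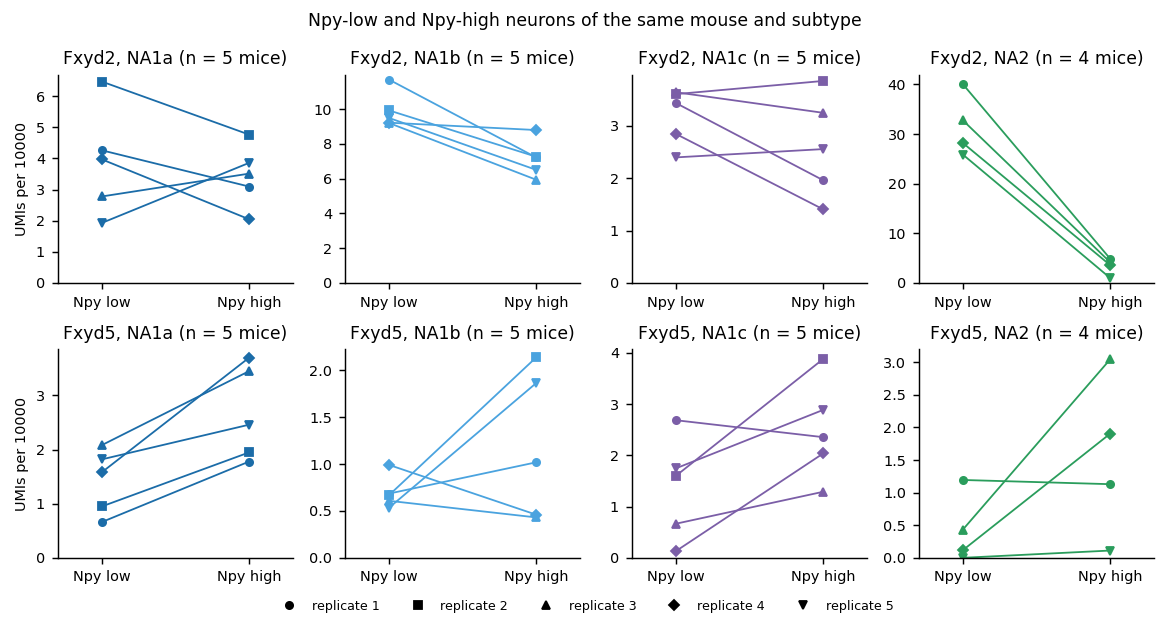
Level of Fxyd2 (top) and Fxyd5 (bottom) in UMIs per 10000 in the Npy-low and Npy-high neurons of the same mouse, joined by a line for each mouse, in NA1a, NA1b, NA1c (n = 5 mice each) and NA2 (n = 4). Fxyd2 is lower with high Npy in every NA2 and NA1b mouse, and Fxyd5 higher in every NA1a mouse.

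The other members tested did not pass the threshold. Atp1b1 differed by -0.19 (limma adjusted p = 0.686) and was lower with high Npy in 4 of 5 mice, Atp1b3 by -0.39 (0.696), Fxyd6 by 0.10 (0.861) and Fxyd7 by 0.04 (0.960). Atp1b2 and Fxyd1 had a mean level over all these profiles under the minimum of 0.5 and were not tested, although single profiles reached it.

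Carriers and ion pumps related to the sodium pump were read from lists, in a limma F test over NA1a, NA1b, NA1c, NA2 and NA3 with the mouse as a block. The test called 4197 of 6185 genes (67.9%), so a call is common, and the subtypes were made from these cells. Among single contrasts, 256 of 6185 genes (4.14%) passed for NA1a against NA1b, 165 higher (2.67%) and 91 lower (1.47%) in NA1a. For NA1a against NA3 there were 1182 (19.1%), 731 higher (11.8%) and 451 lower (7.29%).

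Of 12 carriers driven by the sodium gradient 5 were tested and 4 differed in the F test, beside the 67.9% of all genes. The noradrenaline transporter Slc6a2 was at 17.7 ± 0.991 in NA1b, 14.7 ± 4.14 in NA2 (18.2 ± 3.66 without shared barcodes) and 8.97 ± 1.73 in NA3 (adjusted p = 0.0014). The sodium-potassium-chloride cotransporter Slc12a2 was highest in NA3, at 0.857 ± 0.348 against 0.235 ± 0.152 in NA1a (F test adjusted p = 1.17e-05; log2 difference NA1a minus NA3 -1.57, adjusted p = 0.0143, lost without replicate 2 or 5, and under the level minimum without replicate 1). Its means in the subtypes other than NA3, 0.0215 to 0.346, lay under the minimum of 0.5, and it was not tested without glia-rich neurons. The part of glial RNA in its NA3 level was not tested. The bicarbonate carriers Slc4a8 and Slc4a7 were at 0.344 ± 0.270 and 0.0877 ± 0.104 in NA2, and at 0.436 ± 0.332 and 0.0110 ± 0.0219 without shared barcodes. NA2 was lowest for Slc4a7 in both cases, for Slc4a8 only with shared barcodes (NA3 0.421 ± 0.0868), and both genes lost the call on thinned neurons (adjusted p = 0.0972 and 0.200), Slc4a7 also without replicate 4 (0.0537).

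Of 6 calcium pumps, which share the pump's catalytic mechanism, 4 were tested and 3 differed. The plasma membrane pumps Atp2b1 and Atp2b4 were low in both NA2 and NA3. Atp2b1 was at 6.96 ± 1.27 in NA1a, 3.16 ± 1.01 in NA2 and 3.66 ± 2.03 in NA3, and Atp2b4 at 2.46 ± 0.484, 1.08 ± 0.469 and 1.16 ± 0.592. Without shared barcodes NA2 was at 3.53 ± 0.897 for Atp2b1 and 1.297 ± 0.475 for Atp2b4. Both were higher in NA1a than in NA3, Atp2b1 by 1.04 (adjusted p = 8.54e-04) and Atp2b4 by 1.11 (adjusted p = 0.0084; lost without replicate 2) on the log2 scale. Atp2b2 differed in the F test alone (adjusted p = 9.17e-04). Of 13 vacuolar proton pump genes 12 were tested and 10 differed, led by Atp6v1e1, Atp6v1g1 and Atp6v0d1. These were highest in NA2 at 7.55 ± 1.45, 3.85 ± 0.782 and 4.17 ± 1.01, with 4.67 ± 0.818, 2.75 ± 0.586 and 2.39 ± 0.438 in NA1a. Without shared barcodes NA2 was at 6.56 ± 0.502, 2.85 ± 0.600 and 2.92 ± 0.410, and for Atp6v1g1 NA3 (3.09 ± 1.01) was then the highest. Each kept its F test call then, save Atp6v0d1 (adjusted p = 0.0511). In the Npy comparison 0 of the 18 tested genes of these lists passed by limma, and 5 of 18 (Atp2b1, Atp6v1b2, Atp6v1e1, Atp6v1h and Atp6ap1, some named after their values were seen) had an unadjusted p under 0.05, beside 391 of all 3829 genes (10.2%).

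The genes whose profiles over the 26 mouse and subtype profiles were most like those of a member, by Spearman's rho among 6185 genes, were found for each. They were Lmo1, Tubb3 and Cisd1 for Fxyd6 (0.87 to 0.93), Bex3, Ndufb3 and Txn1 for Fxyd7 (0.84 to 0.89), and Selenow, Arhgdig and Gnas for Fxyd2 (0.81 to 0.82). For Atp1b1 they were Pcmt1, Gapdh and Gnas (0.82 to 0.84), for Atp1b3 Cntn1, Rgs4 and Slc2a3 (0.73 to 0.84), and for Fxyd5 Nt5dc2, Npy and Cpne9 (0.72 to 0.75). Fxyd1 had Atf3, Sparc and Gpm6b (0.81 to 0.89), the last 2 from the satellite glia list, and Atp1b2 had Shpk, Dbi and Slc35f1 (0.74 to 0.77), with Dbi from that list.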

How the data were processed

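The deposited table held, per the labels and its values, 1 value per neuron and gene: the natural log of 1 + UMIs per 10000 UMIs of the neuron. The authors made it from 10x Genomics libraries aligned to mm10 (Cell Ranger 2.1.1) and processed with Seurat and Scanpy, and gave each neuron a mouse name and a subtype. UMIs were recovered here by undoing the log and dividing each neuron's values by its smallest value above 0 (100% of values whole within 0.01). No count model was fitted to the recovered UMIs, and tests were run on the log of mean levels. Doublet removal is not given in the sources used here and none was done. Protocols describe 16 ganglia combined, and that each library is 1 mouse rests on its title, so p-values measure the spread between these libraries.

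Levels were averaged per mouse and subtype (10 neurons or more), and genes at 0.5 or above in as many profiles as the smallest subtype had mice were tested on log2(level + 0.1), which understates changes of low genes, with limma 3.58.1 in R 4.3.3 (intensity trend, mouse as a block, Benjamini-Hochberg, adjusted p below 0.05). The Npy comparison was fitted to 1 difference per mouse. The fits were also run on simulated counts with planted changes, whose outcome is not given here. Neurons there otherwise varied only by depth and counting. How the fits behave with mixed subtypes, shared barcodes or more spread between neurons was not tested. Members and lists were chosen with earlier results of these data known. Some genes and lists are not reported here. Named are the members, up to 5 called genes of each list by smallest p (3 for proton pumps) and 3 most alike genes per member. The mouse block comes from the design, each mouse giving several subtypes: residuals of profiles of the same mouse correlated by 0.0712 on average (42 pairs) and of different mice by -0.0672 (211 pairs). Alternatives covered the pseudocount, filter, depth, minimum of neurons, centring, block, summing, glia-rich neurons, Npy limits and each replicate; leaving out shared barcodes and single subtypes was added after seeing the data.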

Additional observations from a re-analysis of the deposited data

Results flagged for a closer look

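In 5 of 32 groups of 5 mice, 1 mouse stood apart from the other 4 by Dixon's test, which flags about 5% of groups by chance. Atp1b3 in NA1a was at 1.91 in replicate 5 (next 1.05; mean of the other 4 mice 0.872), and in NA1b at 2.03 in replicate 1 (next 1.25; 1.16). Fxyd1 in NA2 was at 0.952 in replicate 2 (next 0.0703; 0.0315). Fxyd2 in NA1b was low in replicate 5, at 7.07 (next 8.9998; 9.43). Fxyd5 in NA1b was at 1.29 in replicate 2 (next 0.810; 0.758). Groups of fewer than 4 mice could not be examined in this way.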

How the results depend on the processing

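The number of genes in the F test stayed within 1.5 times under all 14 alternatives run, but its share of genes tested, 67.9%, was 31.9% without the filter and 42.5% on thinned neurons. Between NA1a and NA1b the 256 calls became 421 with a pseudocount of 1 (53.9% higher in NA1a, against 64.5%), 161 without the filter, 69 on thinned neurons and 102 to 207 with 1 replicate left out. The NA1a against NA3 count ranged from 830 to 1035 with 1 replicate left out, and without the filter 38.6% of its calls were higher in NA1a, against 61.8%. With no replicate block the counts were 4131 (F test), 180 (NA1a against NA1b) and 1072 (NA1a against NA3). The 38 Npy calls became 13 without the filter, 5 on thinned neurons, 66 on summed UMIs, 21 with a median split, 22 with an estimated correlation, and 17, 76, 24 and 21 without NA1a, NA1b, NA1c and NA2; with 1 replicate left out they ranged from 15 to 35. Fxyd2 kept its direction in all 17 alternatives and its call in 15, Fxyd5 its direction in 17 and its call in 9. Of members not called, Atp1b3 (-0.39) turned to 0.0664 without NA2, and Fxyd7 (0.04) to -0.00973 without shared barcodes, -0.169 without NA1c and -0.0264 without NA2, and ranged from -0.101 to 0.160 with 1 replicate left out. The causes were not tested. Leaving out glia-rich neurons left NA3 with no profile, so NA1a against NA3 was not run there. Of 48 member levels, 0 moved by more than 1 SD when a replicate was left out, 5 without shared barcodes and 23 against the pooled neurons of other mice. This last comparison may also be one between batches. Depth limits genes near 1 UMI per neuron, above all Atp1b2 and Fxyd1.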
